A study of Mus musculus with 14 samples.

Results

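Secreted proteins of the acute phase response and of the complement system, 9 genes in all, were followed in scratch-wounded mouse fibroblasts given a skin extract. The genes were Saa3, Lcn2, Hp, Ptx3 and Cp of the acute phase response and C3, Cfb, C4b and Serping1 of complement, and each was chosen by its symbol, giving 9 of the 43472 genes listed. Primary fibroblasts had been grown out of the tail tips of C57BL/6 mice in medium with fetal bovine serum, and every culture was wounded by a scratch, so that the untreated cells were wounded cells as well. Treated cultures received autologous micrograft (AMG), the soluble and cell-depleted part of a mechanically minced and filtered mouse skin biopsy diluted in growth medium, while untreated cultures did not. In replicate 1, 1 library of untreated and 1 of AMG-treated cells was sequenced at each of 1, 5, 12 and 24 h, and in replicates 2, 3 and 4 both groups were sequenced at 5 h only. The age of the mice, and whether donor mice were pooled, were not given in the sources used here.

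The 14 libraries held between 12545537 and 34696529 reads assigned to genes, and the level that 3 reads give, taken as the floor of a library, was between 1.62 and 5.22 normalised counts. Values are read counts divided by a size factor of the library, which the authors set separately for replicate 1 and for replicates 2 to 4, so that levels were not compared across these tables. All 12 fibroblast markers were present in every library (Col1a1 was at 36187 normalised counts or more). The pair of replicate 3 stood apart from those of replicates 2 and 4, with Thy1 at 14712 and 14412 against a range from 1068 to 1723. Markers of macrophages stood out in both libraries of replicate 4, with a summed level over 14 genes of 1651 and 1575 against a range from 180 to 333 in replicates 2 and 3. The markers of hepatocytes, the classical source of acute phase proteins, were nearly absent, since 5 of 8 were at 0 in every library and their sum never exceeded 12.4 normalised counts. In such bulk samples, fewer cells of a type and less RNA per cell cannot be told apart.

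Acute phase proteins are plasma proteins that the liver releases in larger amounts during inflammation, mainly in response to interleukin-6, interleukin-1 and their relatives, through the transcription factors STAT3, NF-kB and C/EBP. Several of them are also made at the site of injury by stromal cells. Complement is a cascade of plasma proteins that marks microbes and damaged cells: the classical, lectin and alternative routes meet at the cleavage of C3, whose fragments coat surfaces and attract leukocytes, and dedicated inhibitors keep the cascade off healthy cells.

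Among the members, Saa3 (serum amyloid A3, an inflammation-induced apolipoprotein-like protein) lies on chromosome 7 at 46711998 to 46715700, and Ptx3 (pentraxin 3, a soluble pattern recognition protein that binds microbes and complement components) lies on chromosome 3 at 66219910 to 66225805. Lcn2 (lipocalin 2, which binds bacterial iron carriers) lies on chromosome 2 at 32384633 to 32388252, Hp (haptoglobin, which captures free haemoglobin) on chromosome 8 at 109575128 to 109579172, and Cp (ceruloplasmin, a copper-carrying ferroxidase) on chromosome 3 at 19957054 to 20009145. Of the complement genes, C3 lies on chromosome 17 at 57203970 to 57228136, Cfb (factor B, the protease subunit of the alternative route) at 34856374 to 34862518 and C4b (complement component 4, used by the classical and lectin routes) at 34728380 to 34743882 of the same chromosome. Serping1 (the C1 inhibitor, which blocks the first proteases of the classical and lectin routes) lies on chromosome 2 at 84765387 to 84775444. Coordinates are those of mm10 in GENCODE M21, and values cover the exons of each gene. Cfb overlaps Gm20547 on the same strand, Ptx3 and Cp overlap Veph1 and Hps3 on the other strand, and C4b has a near-identical copy, C4a, so the counts of these genes are less certain.

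Several members were higher together in treated cells late in replicate 1, but Ptx3 was not at 24 h (log2 ratio -0.18). The bases before the start sites of all members with a promoter were searched for motifs. A link between motifs and these time courses was not tested. The motifs were those of the factors named above and of the transcription factor AP-1. A RefSeq promoter (build GRCm38.p6, equivalent to mm10) was present for 5 of the 9 members, and 250 bases before each start were searched on both strands. Hp, Cfb, C4b and Serping1 had none and could not be searched. Cp had windows for 2 starts. The C/EBP motif TTGCNNAA was present in 5 of the 6 windows, the exception being the more upstream start of Cp. Among all 32851 mouse promoters 9.56% held it, a share per window that is given as a description only, since the letters were chosen on these sequences. The stretches around it are shown 5′ to 3′ on the strand of the gene, with the match in capitals, and those of Lcn2 and Cp are short because the match lies in an annotated exon of another transcript. They lie at chr7:46715728-46715815, minus strand, for Saa3, chr2:32387937-32387966, minus strand, for Lcn2, chr3:66219790-66219877, plus strand, for Ptx3, chr3:19957168-19957197, plus strand, for Cp and chr17:57228137-57228221, minus strand, for C3.
Saa3: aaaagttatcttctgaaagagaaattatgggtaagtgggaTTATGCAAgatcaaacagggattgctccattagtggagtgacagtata
Lcn2: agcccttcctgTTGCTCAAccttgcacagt
Ptx3: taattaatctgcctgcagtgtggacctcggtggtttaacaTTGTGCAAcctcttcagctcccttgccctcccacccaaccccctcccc
Cp: attagttactcTTTTGCAAcattaaattgt
C3: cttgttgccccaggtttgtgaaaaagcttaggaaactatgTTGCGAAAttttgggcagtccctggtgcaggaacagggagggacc
The match began 99 bases before the start of Saa3, 216 before Lcn2, 57 before Ptx3, 70 before Cp and 45 before C3. The more upstream start of Cp held the AP-1 motif TGANTCA, present in 6.75% of all promoters. The STAT motif TTCNNNGAA (7.02% of promoters) and the NF-kB motif GGG[AG]NN[CT][CT]CC (7.25%) were not found in these windows. Sites with other letters, or outside the 250 bases, were not searched for. A match is a stretch of letters and not a measured site of binding.

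To see which of the 9 genes these fibroblasts expressed, mean normalised counts of replicates 2 to 4 at 5 h were divided by transcript length. In untreated cells Ptx3 came first at 737 normalised counts per kilobase, followed by Saa3 at 378, C3 at 124, Serping1 at 118, Lcn2 at 82.9, Cp at 40.1, Hp at 21.0, C4b at 3.50 and Cfb at 0.27. In AMG-treated cells Ptx3 reached 5935 normalised counts per kilobase, Saa3 1416 and Lcn2 302, so that Lcn2 stood above C3 (159), whereas Serping1 (114), Cp (40.4), Hp (27.9), C4b (3.39) and Cfb (0.50) kept their order. In untreated cells the replicate values of neighbours in this order overlapped except between Saa3 and C3 and below Hp, and in treated cells they overlapped only between C3 and Serping1 and between Cp and Hp among the genes above C4b. Cfb was near the limit of detection, with 8 reads in all 6 libraries together. Its place in this order is less certain, since it overlaps Gm20547 on the same strand.

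The 5 h comparison of 3 AMG-treated with 3 untreated cultures asked which of these genes responded to the extract early after wounding. Ptx3 rose 8.90-fold, and Saa3 and Lcn2 were 3.82 and 4.25 times as high as in untreated cells on the same scale without passing the test, while none of the complement members passed it. Differences were tested with limma on log2(normalised count + 1) over 13096 genes with a mean of at least 10, and a gene was called at a Benjamini-Hochberg adjusted p under 0.05 with a log2 fold change above 1 or below -1. Of the 8 members tested, 1 was called, beside 1.1% of all genes tested (0.855% called higher and 0.244% lower), and 3 had an unadjusted p under 0.05, beside 23.1% of all genes. Libraries with the same replicate number deviated together, and when the number entered the fit as a block, 3 members were called (Ptx3, Saa3 and Lcn2), beside 8.32% of all genes (4.05% called higher and 4.28% lower). In these 3 genes all AMG-treated values lay above all untreated ones, which was so for 15.1% of the genes tested. The median log2 fold change over the 8 members was 0.34, with 5 above 0, against -0.02 over all genes tested.

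By group mean, Ptx3 was the most abundant member in both groups. In untreated replicate 4, C3 was higher than Ptx3, at 1058 normalised counts. Untreated replicates 2, 3 and 4 had 2286, 1349 and 564 normalised counts, and AMG-treated replicates 16519, 8896 and 8376. The groups were far apart, and the lowest treated value was well above the highest untreated one. The log2 fold change was 3.15 (SE 0.52, 95% interval 1.93 to 4.38), and the adjusted p by limma was 0.0452 (9.44e-06 with the block). It stayed above 0 under all 20 alternatives, with adjusted p between 8.39e-08 and 0.200. The call was lost when any library other than AMG-treated replicate 3 was left out, with an adjusted p of 0.0967, 0.0826 and 0.0976 without untreated replicates 2, 3 and 4, of 0.200 without AMG-treated replicate 2 and of 0.178 without AMG-treated replicate 4.

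Saa3 had 312, 128 and 188 normalised counts in untreated replicates 2, 3 and 4, and 958, 485 and 915 in the AMG-treated ones. Each treated culture exceeded all untreated cultures. The difference was 1.93 on the log2 scale (SE 0.39, 95% interval 1.01 to 2.86) and did not pass the test, with an adjusted p of 0.0710. With the block the adjusted p was 4.09e-05 (SE 0.15), and the 20 alternatives gave values between 2.59e-05 and 0.432. Without AMG-treated replicate 3, Saa3 passed at 0.0170 without the block. With replicate 1 added to the fit with the block (edgeR on 4 replicates) it did not pass, at 0.361.

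Lcn2 had 109, 25.1 and 93.6 normalised counts in untreated replicates 2, 3 and 4, and 247, 256 and 326 in the AMG-treated ones. The untreated culture of replicate 3 was lowest, and the treated cultures were close to each other and above all untreated ones. They differed by 2.09 on the log2 scale (SE 0.54, 95% interval 0.81 to 3.37), at an adjusted p of 0.105. With the block the adjusted p was 0.00208, and among the 20 alternatives the lowest was 0.00160 and the highest 0.326. With replicate 1 added to the fit with the block it did not pass either, at 0.200.

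**Figure D1:**
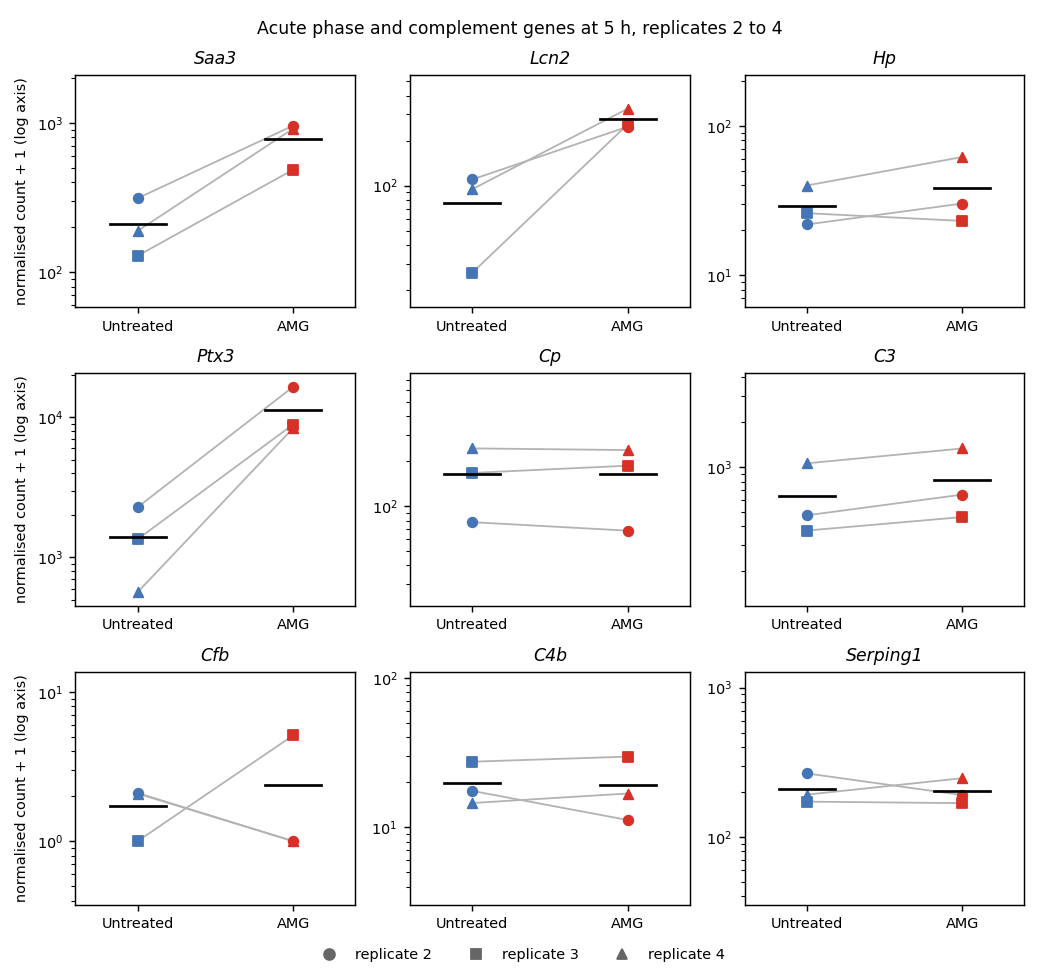
Normalised counts + 1 (log axis) of the 9 genes at 5 h in untreated (blue) and AMG-treated (red) cultures. Symbols mark replicates 2, 3 and 4, lines join libraries with the same number and black bars are means. All treated points lie above all untreated ones for Saa3, Lcn2 and Ptx3, and the groups overlap for the other 6 genes.

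C3, the protein on which all complement routes converge, had 474, 375 and 1058 normalised counts in untreated replicates 2, 3 and 4, and 653, 462 and 1330 in the AMG-treated ones. The groups overlapped, but within each pair the treated culture was higher. A log2 fold change of 0.36 was found (SE 0.50, 95% interval -0.82 to 1.54) at an adjusted p of 0.694. With the block the interval narrowed to 0.12 to 0.60 and the adjusted p was 0.0255, which lies under the threshold for p but not past the threshold for size, and 37.2% of all genes had an adjusted p under 0.05 in that fit. The adjusted p of C3 lay between 0.00374 and 0.962 under the 20 alternatives. C3 was highest in the pair of replicate 4, which was also the pair with the most macrophage marker RNA. The macrophage marker Lyz2 was at 978 and 916 there against 76.6 to 158 in the pairs of replicates 2 and 3. In the latter pairs alone the log2 ratio of C3 was 0.46 and 0.30, and in replicate 4 it was 0.33. Each ratio rests on 1 pair, and the part of macrophages in the level of C3 was not tested.

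The remaining members did not pass in either fit. Hp had 20.9, 25.1 and 38.9 normalised counts in untreated replicates 2, 3 and 4, and 29.3, 22.1 and 61.0 in the treated ones. Cp had 77.0, 166 and 242 in the untreated and 67.4, 185 and 236 in the treated ones. Both genes were highest in replicate 4 of either group, and the groups overlapped. For Hp the log2 fold change was 0.31 (SE 0.48, 95% interval -0.83 to 1.45, adjusted p 0.734). It was -0.02 for Cp (SE 0.58, 95% interval -1.40 to 1.35, adjusted p 0.988), with a sign that turned under 10 of the 20 alternatives.

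Serping1 had 265, 171 and 191 normalised counts in untreated replicates 2, 3 and 4, and 190, 167 and 246 in the treated ones. C4b had 16.5, 26.5 and 13.5 in the untreated and 10.2, 28.7 and 15.8 in the treated ones. The groups overlapped for both genes. Serping1 had a log2 fold change of -0.05 (SE 0.24, 95% interval -0.63 to 0.53, adjusted p 0.924), the narrowest interval among the members. For C4b it was -0.11 (SE 0.53, 95% interval -1.35 to 1.14, adjusted p 0.924), and its near-identical copy C4a, a gene of the complement list, had 9.03 ± 2.97 (SD, n = 3) normalised counts in untreated and 15.9 ± 8.54 in treated cells (log2 fold change 0.67, adjusted p 0.501). Cfb had 1.1, 0 and 1.1 normalised counts in untreated and 0, 4.1 and 0 in treated cells, which was too low to be tested. A difference was not detectable with so few counted reads. Cfb overlaps Gm20547 on the same strand, and whether this overlap lowered its counts was not tested.

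In replicate 1 at 5 h, Ptx3 was higher in AMG-treated cells, as in the other pairs, whereas Saa3 lay in the opposite direction. The log2 ratio of treated to untreated cells was 1.19 for Ptx3 in replicate 1 against 2.85, 2.72 and 3.89 in replicates 2, 3 and 4. Saa3 had a ratio of -1.50 in replicate 1 against 1.61, 1.91 and 2.28 in the others. Lcn2 had -0.42 against 1.17, 3.30 and 1.79. C3 was higher in 4 of 4 pairs, with 0.79 in replicate 1 and 0.46, 0.30 and 0.33 in the others. Hp, Cp, C4b and Serping1 had ratios between -0.65 and 0.70 in the 4 pairs, with both signs for each of them. Untreated Saa3 in replicate 1 was itself at its peak at 5 h.

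Saa3 and Lcn2 have short transcripts (555 and 915 bases), and ratios were therefore also computed with the trend of each library with transcript length removed. After this correction the ratio of Saa3 in replicate 1 at 5 h was -0.36 and that of Lcn2 was 0.47, while Ptx3 had 1.52 and C3 0.38. In replicates 2, 3 and 4 the corrected ratios were 1.02, 1.73 and 1.61 for Saa3, 0.74, 3.17 and 1.33 for Lcn2, and 2.71, 2.68 and 3.75 for Ptx3. Thus Ptx3, Lcn2 and C3 were higher in treated cells in all 4 pairs after the correction, and Saa3 in 3 of them.

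**Figure D2:**
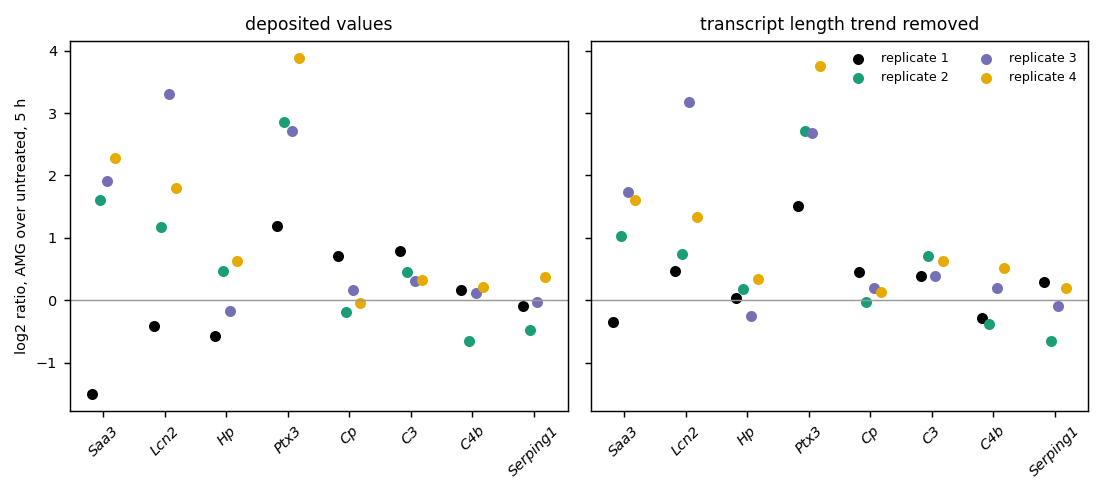
Log2 ratio of AMG-treated to untreated normalised counts (+ 1) at 5 h for the 8 members above the low-count filter, in each of the 4 pairs, from deposited values (left) and with the transcript length trend removed (right). Replicate 1 (black) lies below 0 for Saa3 at -1.50 on the left and at -0.36 on the right, while all pairs lie above 0 for Ptx3 and C3.

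The time course of replicate 1 asked how the genes behaved over the first day. Saa3, Lcn2, Cp, C3 and Hp were highest in AMG-treated cells at 24 h, while Ptx3 was highest at 5 h in both groups, and Serping1 and C4b were highest at 1 h in treated cells. With 1 library per group and time there is no test, and the intervals given cover counting error only (exact binomial, 95%). The median log2 ratio over the 8 members with a mean of at least 10 was -0.08 and 0.03 at 1 and 5 h and 1.07 and 2.85 at 12 and 24 h, against medians between -0.06 and 0.02 over the 13498 genes that passed the same filter. A log2 ratio above 1 was found in 2, 1, 5 and 5 of the 8 members at 1, 5, 12 and 24 h, beside 11.3%, 13.3%, 5.93% and 6.05% of all these genes. A ratio below -1 was found in 1 member at 5 h (Saa3), beside 12.6% of all genes, in 1 at 24 h (C4b), beside 8.05%, and in 0 at 1 and 12 h, beside 10.7% and 6.9%.

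Saa3 in untreated cells was at 342, 1695, 278 and 188 normalised counts at 1, 5, 12 and 24 h, and in AMG-treated cells at 1306, 597, 3126 and 21680. The untreated level peaked at 5 h and was lowest at 24 h, whereas the treated level was lowest at 5 h and highest at 24 h. The log2 ratio was 1.93 (1.75 to 2.11) at 1 h but -1.50 (-1.64 to -1.37) at 5 h. At 12 h it was 3.49 (3.34 to 3.65), and by 24 h it reached 6.84 (6.67 to 7.04), a 115-fold difference. With the length trend removed the ratios were 0.68, -0.36, 3.69 and 6.45, so the late difference was nearly as large while the early ones shrank. Per kilobase, treated Saa3 at 24 h (39063) exceeded the highest level of any other member in replicate 1, which was that of Ptx3 in treated cells at 5 h (17875).

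Lcn2 in untreated cells was at 71.2, 98.3, 44.6 and 36.0 normalised counts at 1, 5, 12 and 24 h, and in treated cells at 110, 73.5, 398 and 1545. It followed the course of Saa3 at a lower level. The log2 ratio was 0.61 (0.12 to 1.11), -0.42 (-0.90 to 0.07), 3.13 (2.77 to 3.57) and 5.38 (5.01 to 5.87), so that the 5 h interval included 0 and the 24 h difference was 41.8-fold. With the length trend removed, the ratio was -0.28 at 1 h and 0.47 at 5 h, both of the opposite sign, and 3.30 and 5.12 at the later times.

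Cp in untreated cells was at 309, 148, 176 and 159 normalised counts at 1, 5, 12 and 24 h, and in treated cells at 231, 241, 871 and 1662. Treated cells were lower at 1 h and higher from 5 h on. The log2 ratio was -0.42 (-0.72 to -0.13), 0.70 (0.36 to 1.06), 2.30 (2.10 to 2.51) and 3.37 (3.18 to 3.60). With the length trend removed, the ratio of Cp was -0.12, 0.45, 2.27 and 3.43, so the early differences shrank. Hp differed later than Cp: it was at 40.4, 32.8, 32.2 and 14.6 normalised counts in untreated and at 34.8, 21.7, 34.3 and 185 in treated cells. Its counting interval included 0 at 1, 5 and 12 h, and the ratio at 24 h was 3.58 (2.99 to 4.43) on the log2 scale.

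C3 in untreated cells was at 693, 236, 408 and 371 normalised counts at 1, 5, 12 and 24 h, and in treated cells at 389, 409, 861 and 1853. Among the complement members above the low-count filter it was the only one with a log2 ratio above 1, at 12 h (1.08, 0.92 to 1.23) and 24 h (2.32, 2.18 to 2.46). The ratio of C3 was below 0 at 1 h (-0.83, -1.05 to -0.62) and above 0 at 5 h (0.79, 0.53 to 1.07). With the length trend removed it was -0.42, 0.38, 1.01 and 2.43 at 1, 5, 12 and 24 h, so the early differences shrank. The summed macrophage markers were lower in treated than in untreated cells at these late times (659 against 1330 at 12 h and 482 against 1336 at 24 h), with 1 library per group and time. They were lower at the early times as well, at 1485 against 1622 at 1 h and 644 against 2228 at 5 h. Their part in the level of C3 was not tested.

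Ptx3 in untreated cells was at 6285, 14883, 2527 and 6513 normalised counts at 1, 5, 12 and 24 h, and in treated cells at 18640, 33927, 5294 and 5734. Both groups peaked at 5 h, and treated cells were higher at the first 3 times. The log2 ratio was 1.57 (1.53 to 1.61), 1.19 (1.16 to 1.22), 1.07 (1.01 to 1.13) and -0.18 (-0.23 to -0.14), and it differed from that of Saa3 most at 24 h.

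Serping1 in untreated cells was at 1754, 1195, 1064 and 936 normalised counts at 1, 5, 12 and 24 h, and in treated cells at 1650, 1118, 1127 and 1212. Its counting interval excluded 0 only at 24 h (0.37, 0.26 to 0.49). With the length trend removed, its log2 ratio was -0.42 instead of -0.09 at 1 h and 0.29 instead of -0.10 at 5 h. C4b was at 38.7, 26.2, 13.9 and 55.1 in untreated and at 36.5, 29.4, 24.8 and 25.2 in treated cells, with a log2 ratio of -1.10 (-1.81 to -0.48) at 24 h, while C4a was at 21.4 and 24.3 at that time. Cfb rested on 1 to 10 reads per library, at 8.79, 3.28, 0.73 and 3.83 normalised counts in untreated and 1.74, 4.64, 6.67 and 4.50 in treated cells, so that no course can be read from it.

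**Figure D3:**
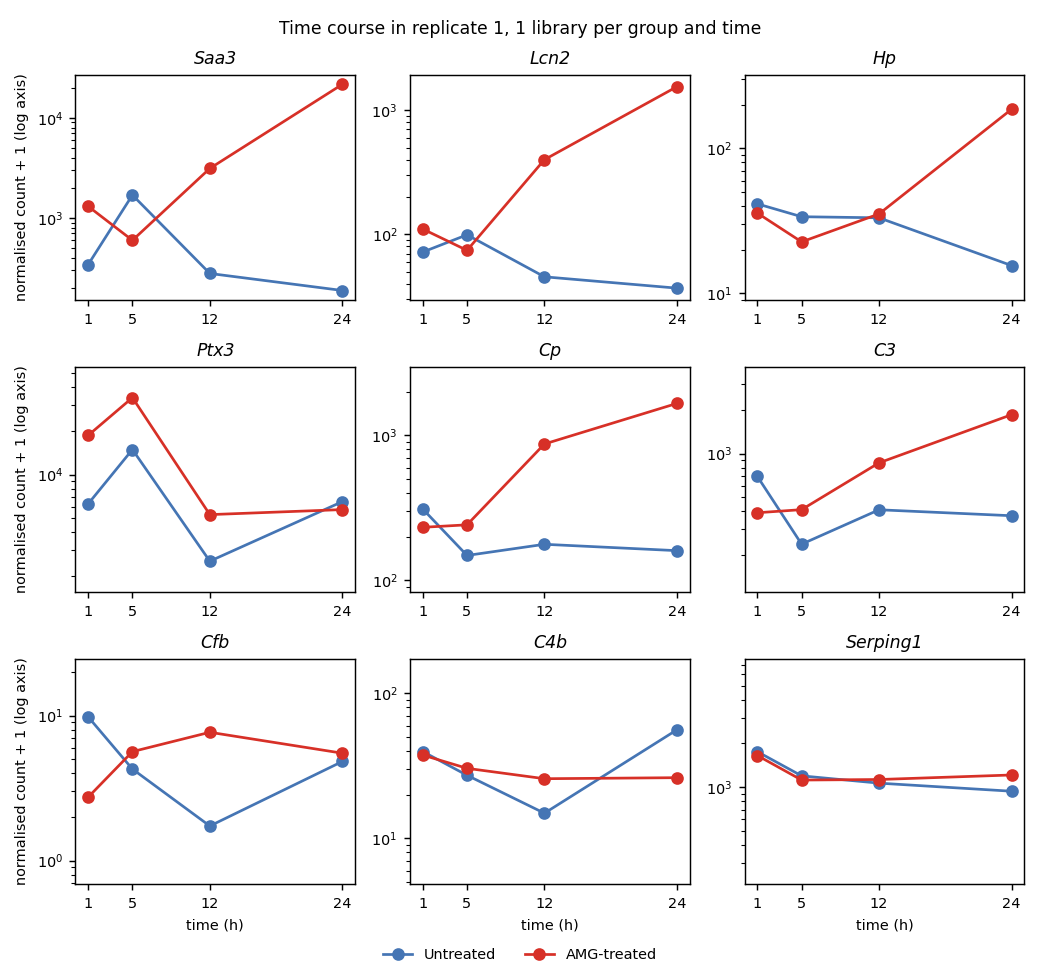
Normalised counts + 1 (log axis) of the 9 genes in replicate 1 at 1, 5, 12 and 24 h (linear axis), with 1 library per point, in untreated (blue) and AMG-treated (red) cells. The lines part at 12 and 24 h for Saa3, Lcn2, Cp and C3 and at 24 h for Hp, while those of Ptx3 meet at 24 h, when it was at 6513 in untreated and 5734 in treated cells.

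Neutrophil markers were read beside Lcn2, which is also a neutrophil granule protein. Their sum over 10 genes was 10.7 in untreated and 305 in treated cells of replicate 1 at 24 h, when S100a8 was at 162, Camp at 111 and Ly6g at 24.3 in treated cells. S100a9 was at no more than 2.70 normalised counts in any library, and Elane, Retnlg and Ngp were at 0 in all of them. At 5 h in replicates 2 to 4 the sum ranged from 6.60 to 20.9 in untreated and from 14.0 to 59.8 in treated cells. Their part in the level of Lcn2 was not tested.

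The other genes of the complement pathway, 52 genes with the 4 members included, showed whether the cascade was expressed as a whole. Of these, 24 were abundant enough to be tested, 9 were at 0 in every library and none of the 7 terminal pathway genes, which build the membrane attack complex, was tested. In the main test by limma 0 were called higher, beside 0.855% of all genes tested, and 1 lower, beside 0.244%. Of the 24, 1 had an unadjusted p under 0.05, beside 23.1% of all genes, and it was the gene called lower. This gene was Masp1, the protease that starts the lectin route. Masp1 had 1791, 912 and 1600 normalised counts in untreated replicates 2, 3 and 4 and 290, 462 and 407 in treated ones. Its groups did not overlap, its difference was -1.86 on the log2 scale (SE 0.30, adjusted p 0.0433), and edgeR and DESeq2 also called 1 gene of the list. The call was lost, leaving 0, without replicate 2 or 4 of either group. With the block, 2 were called higher and 1 lower, beside 4.05% and 4.28% of all genes. The additional genes were Cfi, the protease factor I that inactivates C3b (1.71, adjusted p 0.0373 with the block), and Cd93, first described as a C1q receptor (1.71, adjusted p 0.0316 with the block). The alternatives gave adjusted p values between 0.0283 and 0.546 for Cfi, between 0.0176 and 0.505 for Cd93 and between 3.60e-07 and 0.194 for Masp1. Cfi was near the floor, at 7.70, 1.39 and 3.79 normalised counts in untreated replicates 2, 3 and 4. It had 60 reads in all 6 libraries together, and Cd93 had 89. In replicate 1 at 5 h the log2 ratio was -0.05 for Cfi, 4.35 for Cd93 (0 in untreated cells) and -0.31 for Masp1. C1ra and C1s1, the proteases that Serping1 inhibits, had log2 fold changes of -0.02 and -0.16 (adjusted p 0.974 and 0.779). The median over the 24 genes was -0.07.

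Of 37 acute phase genes, the 5 members included, 14 were tested, with a median log2 fold change of 0.74. Of all 37, 9 were at 0 in every library. In the main test 2 were called higher, beside 0.855% of all genes tested. They were Ptx3 and Slpi, an inhibitor of leukocyte proteases. Slpi had 148, 82.2 and 53.0 normalised counts in untreated replicates 2, 3 and 4 and 1290, 687 and 899 in treated ones (log2 fold change 3.41, SE 0.40, adjusted p 0.0203). In replicate 1 at 5 h it lay the other way, at 495 in untreated and 407 in treated cells (log2 ratio -0.28, counting interval -0.49 to -0.07), or 0.62 with the length trend removed. Leaving out untreated replicate 2 left 1 call, and leaving out untreated replicate 3 or 4 or AMG-treated replicate 2 or 4 left 0. With the block 5 were called higher, beside 4.05% of all genes. The additional genes were Saa3, Lcn2 and Cd14, a coreceptor for bacterial lipopolysaccharide (1.93, adjusted p 3.17e-05 with the block and between 1.92e-05 and 0.279 under the alternatives). Of the untested genes, the 3 fibrinogen chains were at 0 in every library, and Saa1 and Saa2, the circulating relatives of Saa3, did not exceed 10.8 and 3.60 normalised counts.

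The inducers of acute phase genes were read at the same time point. Of 24 such genes (cytokines, their receptors, transcription factors and feedback inhibitors), 22 were tested. In the main test 9 were called higher, beside 0.855% of all genes tested, and none lower, beside 0.244%. With the block 13 were called higher, beside 4.05% of all genes. Il6, the main inducer of the hepatic response, had a mean of 9.63 ± 13.4 (SD, n = 3) normalised counts in untreated and 671 ± 448 in treated cells (log2 fold change 6.72, SE 1.01, adjusted p 0.0402). The related cytokine Lif, at 145 ± 30.1 and 16960 ± 9204, had 6.69 (adjusted p 0.00567), Il1a had 6.00 (adjusted p 0.0266) and Il11 had 3.28 (adjusted p 0.0414). Nfkbiz, a nuclear cofactor of NF-kB required for Lcn2 induction in other cells, had 3.03 (adjusted p 0.00567), Nfkb1 had 1.82 (adjusted p 0.0211) and Relb had 2.09 (adjusted p 0.0491). The feedback inhibitors Nfkbia and Tnfaip3 had 3.79 and 2.89 (adjusted p 0.0196 and 0.0273). Cebpb and Cebpd, which bind the C/EBP motif, had 2.27 and 1.83 and were not called in the main test but were with the block (adjusted p 0.000984 and 0.000351 with it, between 1.56e-05 and 0.279 for Cebpb and between 0.000185 and 0.397 for Cebpd under the alternatives). The number of inducers called was 2, 3 and 2 without untreated replicates 2, 3 and 4, 0 without AMG-treated replicate 2, 13 without AMG-treated replicate 3 and 1 without AMG-treated replicate 4. None of the 7 cytokine receptor genes was called.

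**Figure D4:**
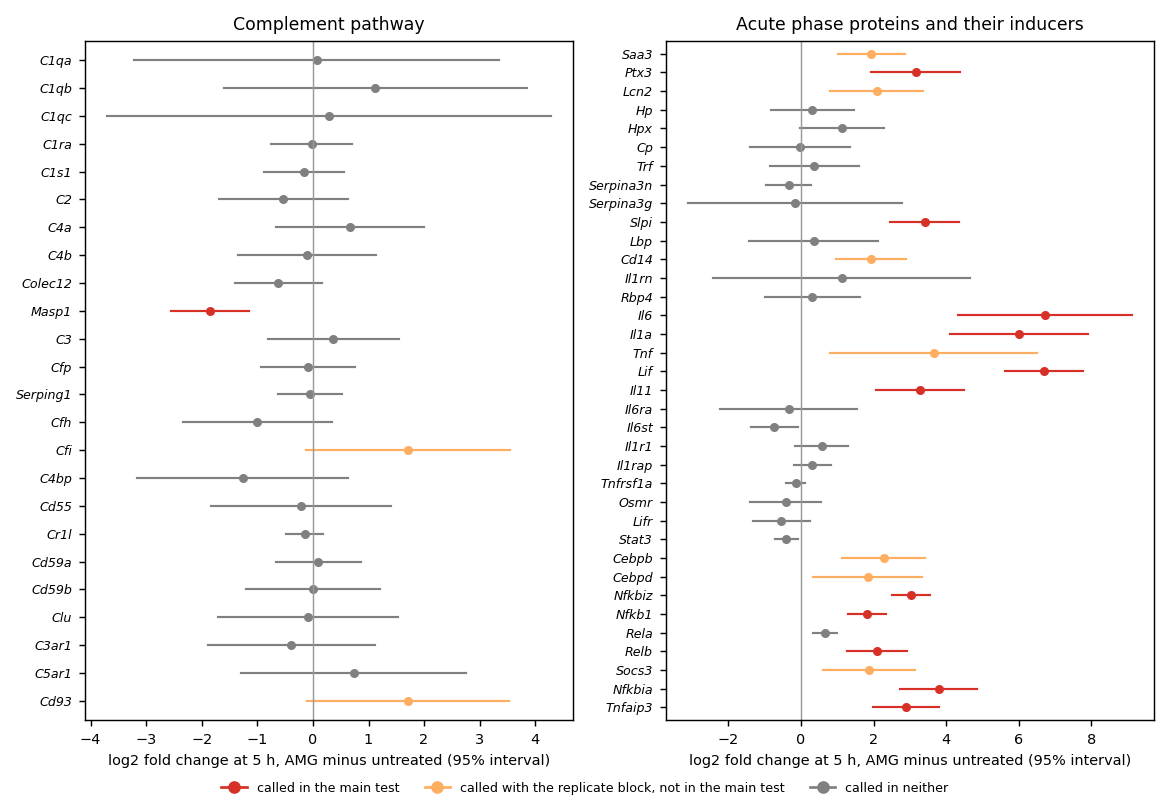
Log2 fold change at 5 h (AMG-treated minus untreated, replicates 2 to 4) with 95% interval for the tested genes of the complement pathway (left, 24 genes) and of the acute phase proteins and their inducers (right, 14 and 22 genes). Red genes were called in the main test, orange genes with the replicate block but not in the main test, and grey genes in neither of these fits. Calls on the left were few, with Masp1 at -1.86, and those on the right were all on the higher side.

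Of 9 receptors and transporters that act with the members, 7 were tested. None was called in the main test, beside 1.1% of all genes tested. An unadjusted p under 0.05 by limma was found for 2 of the 7, beside 23.1% of all genes. With the block 2 were called higher, beside 4.05% of all genes. They were Slc40a1 (ferroportin, the iron exporter with which ceruloplasmin works), at 4.57 ± 1.92 (SD, n = 3) normalised counts in untreated and 48.3 ± 21.6 in treated cells (log2 fold change 3.08, adjusted p 0.0575 without the block and 0.00164 with it), and Tlr2, a receptor that senses bacterial lipoproteins (1.63, adjusted p 0.226 and 0.000575). Under the alternatives Slc40a1 had adjusted p values between 0.000125 and 0.233, and Tlr2 between 0.000353 and 0.507. Like Cp, Slc40a1 was higher in treated cells at 12 and 24 h in replicate 1. It was at 11.7 and 181 normalised counts in untreated and treated cells at 12 h and 9.19 and 186 at 24 h. From 12 to 24 h treated Slc40a1 hardly moved, while treated Cp went from 871 to 1662. At 5 h in replicates 2 to 4 the log2 fold change of Cp was -0.02. Slc22a17, a receptor for Lcn2, had a log2 fold change of -0.48 (adjusted p 0.630).

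The genes whose pattern was most like that of Saa3 were Slpi, Ttc39c, Gsto1, Lcn2 and Mapk13, taken by the smaller of 2 Pearson correlations of log2(normalised count + 1), over the 8 libraries of replicate 1 and the 6 libraries of replicates 2 to 4, among 10885 genes. The smaller correlation was 0.95 for Slpi, 0.93 for Ttc39c, 0.92 for Gsto1, 0.92 for Lcn2 and 0.92 for Mapk13, so that another member was among the 5. For C3 they were 3110002H16Rik (0.89), Clip4 (0.88), Slco3a1 (0.87), Inf2 (0.87) and Psap (0.87), with no other member among them. These values describe libraries that share treatment and time and are given without a test. The correlations used deposited values, without the correction for transcript length.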

How the data were processed

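Poly(A) RNA of 14 cultures was sequenced as stranded single-end libraries. The authors checked reads with FastQC 0.11.5, aligned them to mm10 with TopHat2 2.0.13, kept uniquely aligned reads, handled them with SAMtools 0.1.19.24 and counted them per gene with HTSeq 0.5.3p3. The annotation release and strand setting were not given in the sources used here. The deposited signal values are counts that the authors divided by DESeq size factors, in 1 table of 8 and 1 of 6 libraries. In every library 100% of the values were whole reads within 0.1 once divided by the value of 1 read. From these values limma 3.58.1 in R 4.3.3 (lmFit, eBayes with trend) was fitted to log2(value + 1) at 5 h, 3 against 3, and the smallest mean kept was 10. Fold changes on this scale understate those of low genes. On the recovered reads, edgeR 4.0.16 and DESeq2 1.42.0 were alternatives, as were other pseudocounts, filters and scalings, a correction for transcript length and each library left out. Same-numbered libraries deviated together (correlations 0.65, 0.76 and 0.70, against -0.59 to 0.12 for other pairs), which pairs them from the data, since no label states what same-numbered samples have in common. The design text calls the samples biological. Figures were drawn with matplotlib 3.10.9. The text names all 9 members, every gene of 4 gene lists called in the main test, a few partners or paralogs of members and the 5 genes most like Saa3 and C3. Members and lists were chosen with earlier results of these data known. Code was tested on simulated data.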

Additional observations from a re-analysis of the deposited data

Results flagged for a closer look

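Among the 4 pairs at 5 h, the log2 ratio of C4b in replicate 2, -0.65, lay apart from those of replicates 1, 3 and 4 (0.16, 0.11 and 0.21). The gap was 0.885 of the whole range, above the 95% critical value of Dixon's test for 4 samples. Chance gives about 1 such gap in 20 groups, and 8 genes were searched. C4b was at 16.5 and 10.2 normalised counts in that pair, and it has a near-identical copy.

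The log2 ratio of Saa3 in replicate 1 was 1.93 and -1.50 at 1 and 5 h and 3.49 and 6.84 at 12 and 24 h, in opposite directions at different times. The difference between times was not tested, since each rests on 1 library per group.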

How the results depend on the processing

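With the replicate block the counts of genes called at 5 h went from 1 to 3 for the members, 1 to 3 for complement and 2 to 5 for acute phase genes, and edgeR with the block and the length correction with the block gave the same 3 counts. DESeq2 called 3 members and 5 acute phase genes, edgeR without the block 0 and 1. Without the trend limma called 0 members, 0 complement, 1 acute phase and 4 inducer genes (9 in the main test). On 4 replicates edgeR with the table as batch called 0 members, 0 complement and 1 acute phase genes, while the replicate block on 4 replicates gave 1 member, 0 complement, 2 acute phase and 12 inducer genes, so that Saa3 (adjusted p 0.361) and Lcn2 (0.200) lost the call that they had with the block on 3 replicates, and the length correction alone left 0 complement genes. Leaving out 1 library gave 0 to 2 members, 0 to 1 complement, 0 to 4 acute phase and 0 to 13 inducer genes, with the highest counts of members, acute phase and inducer genes without AMG-treated replicate 3 and 0 inducers without AMG-treated replicate 2. The log2 fold change of Cp turned positive with edgeR (0.015), DESeq2 (0.013), edgeR with the block (0.00030), edgeR on 4 replicates with the table as batch (0.19) or the block (0.18) and the length correction with or without the block (0.11). That of C4b turned with edgeR on 4 replicates with the table as batch (0.048) and with the length correction with or without the block (0.12). Leaving out 1 library gave -0.48 to 0.52 for Cp, -0.48 to 0.23 for C4b, -0.10 to 0.61 for Hp, -0.062 to 0.81 for C3 and -0.21 to 0.13 for Serping1, but 1.63 to 2.27 for Saa3, 1.43 to 2.47 for Lcn2 and 2.61 to 3.62 for Ptx3, which stayed above 0. The median member ratio at 24 h in replicate 1 was 2.64 with a pseudocount of 10, against 2.85. Besides Saa3 and Lcn2, the block changed no call of a member. The cause of these shifts was not tested. With 3 cultures per group, wide intervals limit what can be said of Hp, Cp and C4b, and Cfb lies at the floor.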

Other observations

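Markers of the other cell types that skin or tail tissue could hold were counted at 5 h. Over all genes tested, 1.1% were called in the main test and 23.1% had an unadjusted p under 0.05 by limma. With the block, 4.05% of all genes were called higher and 4.28% lower. Of 10 keratinocyte markers, 4 were tested and 0 were called in the main test (2 had an unadjusted p under 0.05 by limma, and 2 were called lower with the block), and their summed level ranged from 159 to 345 normalised counts in untreated and from 100.8 to 191 in treated cells. Of 8 adipocyte markers, 2 were tested and 0 called (0 with an unadjusted p under 0.05), with sums from 296 to 1177 and from 440 to 2073. Of 7 endothelial markers, 1 was tested and 0 called (0 with an unadjusted p under 0.05, and 1 called lower with the block), with sums from 18.9 to 252 and from 12.7 to 125. Of the 14 macrophage markers, 11 were tested and 0 called (0 with an unadjusted p under 0.05, and 1 called higher with the block). All 12 fibroblast markers were tested, 0 were called (3 with an unadjusted p under 0.05) and 1 of them had a log2 fold change above 0, with a median of -0.50. With the block 0 were called, and 8 of the 12 were lower at an adjusted p under 0.05, where 37.2% of all genes passed in either direction. Their sum was 650609 in untreated and 343363 in treated cells of replicate 1 at 24 h.

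Untreated cells of replicate 1 also differed between times. Compared with 1 h, untreated Saa3 differed by 2.31 on the log2 scale at 5 h and by -0.86 at 24 h, and untreated Ptx3 by 1.24 and 0.05. In AMG-treated cells the same comparison gave -1.13 and 4.05 for Saa3 and 0.86 and -1.70 for Ptx3. Untreated C3 and Cp differed by -0.90 and -0.95 between 1 and 24 h, and treated C3 and Cp by 2.25 and 2.84. Each value rests on 1 library per group and time, so no test was made. These differences between times come from deposited values, without the correction for transcript length. With the length trend removed, the log2 ratio of treated to untreated Saa3 was 0.68 instead of 1.93 at 1 h. At 5 h it was -0.36 instead of -1.50.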
